A study of Rattus norvegicus with 4 samples.

Results

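The genes described here are 32 interferon response genes, chosen as a fixed list of names: sensors of foreign RNA, interferon beta, the factors that carry its signal, and the antiviral proteins and chemokines that it induces. Of the 32 genes, 31 had at least 1 probe on the array (43 probes), and 29 passed the filter on dim probes, out of 25500 genes tested. Xaf1 had no matched probe. Cxcl11 and Ifnb1 had 1 probe each but were above background only on 1 array, so no ratio is given for them.

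The series examined endoglin, which helps TGF-beta and related ligands to bind their receptors, in rat hepatic stellate cells, the vitamin A-storing pericytes of the liver. RNA of cells transfected with an siRNA against endoglin, or of cells left untreated, was labelled with Cy5 and hybridised beside Cy3-labelled RNA of cells transfected with a control siRNA. The design had 4 arrays of the whole rat genome, 2 with endoglin siRNA and 2 with untreated cells. In each group 1 array carried cells of 1 animal and 1 array carried a pool of 3 animals. Endoglin siRNA and control siRNA cells were both transfected, and only the untreated cells were not. The strain and age of the rats, the siRNA sequences and the time from transfection to harvest were not found in the labels or file headers. Whether the arrays shared a control RNA, and whether the animal of the 1-animal arrays was also in the pools, is not stated either. Control siRNA RNA was measured only as the other dye, with no dye swap, so a dye effect of a probe and a difference from control siRNA cells cannot be told apart.

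As background, type I interferon binds a receptor whose kinases activate Stat2; a complex that holds Stat2 and Irf9 then binds interferon-stimulated response elements (ISREs) in front of its target genes. Cells start this response when Tlr3 in endosomes, or Ddx58 (RIG-I) and Ifih1 (MDA5) in the cytosol, bind double-stranded RNA, and Irf7, itself a target, amplifies it. Interferons are also known to restrain the activation of hepatic stellate cells in culture. In these bulk samples, fewer cells of a type and less RNA per cell cannot be told apart.

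The promoters of 25 of the 32 genes were present in the RefSeq table used (build GRCr8), each as 250 bases before to 50 bases after the gene start. The ISRE core (GAAA, any 2 bases, GAAA), searched on both strands, was in 14 of these 25 windows (56%), against 1034 of the 27457 windows of all genes (3.77%). The motif TTCNNNGAA, the GAS element of the interferon gamma response, was in 6 of 25 (24%), against 8.68% of all windows. In 13 of all windows an ISRE core overlapped a GAS motif. In 11 of the 29 tested genes both endoglin siRNA arrays lay above both untreated arrays, against 24.4% of all genes. Of these, Tlr3, Ifi35 and Cmpk2 have a window without a core, and Bst2, Gbp2, Isg20, Oas1b, Ifit3 and Eif2ak2 one with a core. Among all tested genes with a window, 13 have a core and 9 have none. Tlr3 also passed the test with endoglin siRNA. Shown are the windows of Bst2, Gbp2, Isg20 and Tlr3, which alone stayed above without the disturbed spots described below (4 of 29, 24% of all genes). Each runs 5′ to 3′ on the strand of the gene, with every base of an ISRE core, on either strand, in capitals.
Bst2: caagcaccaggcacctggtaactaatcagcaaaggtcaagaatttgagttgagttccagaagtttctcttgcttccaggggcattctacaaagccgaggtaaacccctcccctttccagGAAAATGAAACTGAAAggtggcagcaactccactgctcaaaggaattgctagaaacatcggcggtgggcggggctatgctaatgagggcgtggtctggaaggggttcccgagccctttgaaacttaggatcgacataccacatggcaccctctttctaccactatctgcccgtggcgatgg
Gbp2: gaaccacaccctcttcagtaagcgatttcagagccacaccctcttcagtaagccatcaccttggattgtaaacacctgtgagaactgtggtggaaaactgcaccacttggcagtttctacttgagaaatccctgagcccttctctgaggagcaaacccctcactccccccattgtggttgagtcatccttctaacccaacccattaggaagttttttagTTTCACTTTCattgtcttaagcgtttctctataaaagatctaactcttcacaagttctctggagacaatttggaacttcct
Isg20: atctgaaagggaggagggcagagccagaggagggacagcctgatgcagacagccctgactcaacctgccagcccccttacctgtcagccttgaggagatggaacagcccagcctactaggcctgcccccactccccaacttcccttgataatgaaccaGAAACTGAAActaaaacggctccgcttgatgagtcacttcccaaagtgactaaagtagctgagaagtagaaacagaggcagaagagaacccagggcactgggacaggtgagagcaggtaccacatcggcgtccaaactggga
Tlr3: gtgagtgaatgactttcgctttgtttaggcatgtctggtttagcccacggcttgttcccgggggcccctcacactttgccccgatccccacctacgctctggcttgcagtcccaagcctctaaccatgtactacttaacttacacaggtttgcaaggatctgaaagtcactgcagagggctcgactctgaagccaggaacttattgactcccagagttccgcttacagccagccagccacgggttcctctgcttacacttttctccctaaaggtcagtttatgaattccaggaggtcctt
The Bst2 window (chr16:18254918-18255217, minus strand) holds 2 overlapping cores, at -131 and -125 from the gene start. The Gbp2 window (chr2:234005477-234005776, plus strand) holds 1 core at -31, read on the opposite strand. The Isg20 window (chr1:142239809-142240108, plus strand) holds 1 core at -92. The Tlr3 window (chr16:53554666-53554965, plus strand) holds none. A match is a stretch of letters and not a measured binding site.

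Values below are log2 ratios of the Cy5 sample over the control siRNA cells of the same array, after background correction and loess normalization, taken from the brightest probe of each gene. A positive value means a higher signal in endoglin siRNA or untreated cells than in control siRNA cells. Direction was taken from the dyes named in the labels; the deposited value table has the same sign on the endoglin siRNA arrays and the opposite sign on both untreated arrays. Endoglin itself (Eng) had log2 ratios of -3.08 (1 animal) and -1.72 (pool) on the endoglin siRNA arrays, and -0.36 and -0.42 on the untreated arrays. Between 65.7% and 93.3% of 43379 gene spots were above background in Cy5 and between 61.9% and 87.2% in Cy3, with the highest shares on the pooled untreated array. On the pooled arrays, 10 disturbed spots (4 with endoglin siRNA, 6 with untreated cells) raised the level at which the background correction leaves dim probes. The 5th percentile of Cy3 there was 542 with endoglin siRNA and 391 with untreated cells, against 60.7 and 76.7 when those spots were left out, so ratios of dim probes on the pooled arrays are pulled towards 0. Of 13 stellate cell markers 12 were tested, all but Acta2. The log2 ratio of their summed Cy5 signal to their summed Cy3 signal was 0.23 to 0.55. Single markers went both ways against control siRNA cells. With endoglin siRNA 3 of the 12 were called higher by limma and 2 lower, where 8.11% of all genes passed. In untreated cells 3 were called higher and 0 lower, where 0.702% of all genes passed.

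Of the 29 genes, 27 were above background in both channels of all 4 arrays. Oas1b was above background in 4 of these 8 readings and Ifit3 in 6. Across the genes, the arrays did not move alike. The median log2 ratio was 0.08 on the 1-animal and -0.05 on the pooled endoglin siRNA array, and -0.01 on the 1-animal and -0.28 on the pooled untreated array. The medians over all 25500 genes were 0.02, 0.01, 0.02 and -0.01 in the same order. On the pooled endoglin siRNA array 18 of 29 genes lay below 0, where 40.2% of all genes did, and on the pooled untreated array 26 of 29 did (58.1% of all genes). On the 1-animal endoglin siRNA array 9 of 29 lay below 0 (45.1%), and on the 1-animal untreated array 15 of 29 (44.1%). Without the disturbed spots, 23 of 29 genes lay below 0 on the pooled endoglin siRNA array and 26 of 29 on the pooled untreated array. With median centring in place of loess, the list medians with endoglin siRNA were 0.72 (1 animal) and 0.80 (pool), and in untreated cells 0.59 and -0.79. The medians of all genes then stood at 0.35, 0.24, 0.34 and -0.15 in the same order, so the sign of the list median depends on the scaling on the pooled endoglin siRNA and the 1-animal untreated array, while on the pooled untreated array it was below 0 either way.

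**Figure D1:**
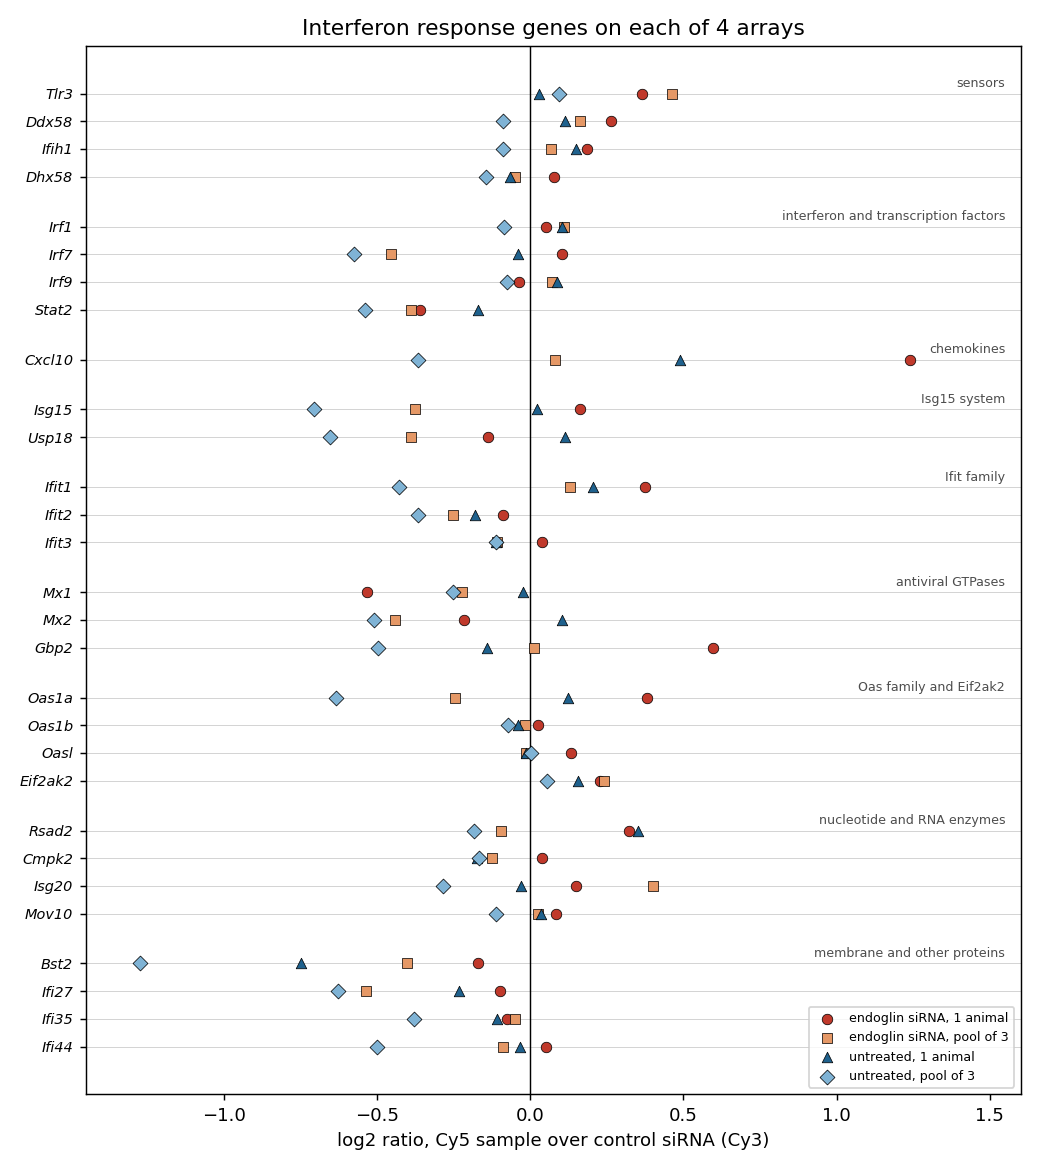
Log2 ratio to control siRNA cells (x axis) of each of the 29 genes, in rows grouped by role; symbols are the 4 arrays, with no error bars because each point is 1 array. Most light blue diamonds (untreated, pool) lie left of 0, Bst2 furthest at -1.27, and Cxcl10 lies furthest right at 1.24 on the 1-animal endoglin siRNA array.

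Among the sensors, Tlr3 stood apart. Tlr3, the endosomal receptor for double-stranded RNA, had normalised intensities of 1130 (1 animal) and 2280 (pool) in endoglin siRNA cells, against 881 and 1660 in the control siRNA cells of the same arrays. In untreated cells it had 768 and 1880, against 753 and 1760 in control siRNA cells. The log2 ratios were therefore 0.36 and 0.46 with endoglin siRNA and 0.03 and 0.09 in untreated cells, and the 2 groups did not overlap. Tlr3 rose in endoglin siRNA cells by 0.41 ± 0.06 on the log2 scale (SE, n = 2 arrays), a 1.33-fold higher level with a limma adjusted p of 0.0129. It was the only 1 of the 29 genes called in this comparison, where 8.11% of all genes tested passed and 5.25% passed as higher. With the log ratios of the scanner software the Tlr3 value was 0.40 with an adjusted p of 0.1, and it was 1.27 with median centring and 0.86 when the arrays were scaled to each other (adjusted p = 0.197 and 0.436).

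The cytosolic sensors had smaller ratios. Ddx58 (RIG-I, listed by RefSeq as Rig1) had log2 ratios of 0.26 and 0.16 with endoglin siRNA, and 0.11 and -0.09 in untreated cells. Ifih1 (MDA5) had 0.19 and 0.07 with endoglin siRNA, and 0.15 and -0.09 in untreated cells. Dhx58 (LGP2), which modulates both, had 0.08 and -0.05 with endoglin siRNA, and -0.07 and -0.15 in untreated cells. For Ddx58 and Dhx58 both endoglin siRNA arrays lay above both untreated arrays, but not without the disturbed spots, where the pooled values were 0.05 with endoglin siRNA and -0.05 in untreated cells for Ddx58, and -0.23 and -0.22 for Dhx58. None of the 3 genes passed a test. A further probe of Ddx58 gave values between -0.08 and 0.04, and a further probe of Dhx58 gave -0.27 and -0.04 with endoglin siRNA.

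Among the factors that carry the signal, Stat2 had the lowest mean with endoglin siRNA and in untreated cells. Stat2, a subunit of the interferon-activated complex, had intensities of 417 and 1100 in endoglin siRNA cells, against 535 and 1440 in control siRNA cells. In untreated cells it had 354 and 1020, against 398 and 1490 in control siRNA cells. All 4 log2 ratios were below 0, at -0.36 and -0.39 with endoglin siRNA and at -0.17 and -0.54 in untreated cells. The mean was -0.37 ± 0.09 with endoglin siRNA (adjusted p = 0.0501) and -0.35 ± 0.09 in untreated cells (adjusted p = 0.147). Without the disturbed spots the endoglin siRNA value was -0.58, with an adjusted p of 0.0225. With median centring it turned to 0.32 (adjusted p = 0.596), where the median of all genes was 0.32 as well.

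Irf7, which amplifies interferon production, had log2 ratios of 0.10 (1 animal) and -0.46 (pool) with endoglin siRNA, and -0.04 and -0.58 in untreated cells. The pooled arrays were the lower ones in both groups. Irf1 had 0.05 and 0.11 with endoglin siRNA, and 0.10 and -0.09 in untreated cells. Irf9, the DNA-binding partner of Stat2, had -0.04 and 0.07 with endoglin siRNA, and 0.09 and -0.07 in untreated cells. For these 3 factors the groups overlapped. Without the disturbed spots the pooled values of Irf1 were -0.04 with endoglin siRNA and -0.04 in untreated cells. Those of Irf9 were then -0.05 and -0.03, and both of its endoglin siRNA arrays lay below both untreated arrays. Ifnb1, the interferon itself, was above background only on the pooled untreated array, in untreated and in control siRNA cells alike, with Feature Extraction log2 ratios whose errors exceeded their size on every array.

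The chemokine Cxcl10, which draws T cells to inflamed tissue, varied most. It had intensities of 396 and 1140 in endoglin siRNA cells, against 168 and 1080 in control siRNA cells, and of 171 and 823 in untreated cells, against 122 and 1060 in control siRNA cells. The log2 ratios were 1.24 (1 animal) and 0.08 (pool) with endoglin siRNA, and 0.49 and -0.37 in untreated cells. The 1-animal array was the higher one in each group. The groups overlapped, since the 1-animal untreated value lay above the pooled endoglin siRNA value. The mean with endoglin siRNA was 0.66 ± 0.27 (adjusted p = 0.205), which rests on the 1-animal array. Cxcl11, a ligand of the same receptor, was above background in neither channel of 3 arrays.

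The ubiquitin-like protein Isg15 and the protease that removes it from its targets, Usp18, were low on the pooled arrays. Isg15 had log2 ratios of 0.16 and -0.38 with endoglin siRNA, and 0.02 and -0.71 in untreated cells. Usp18 had -0.14 and -0.39 with endoglin siRNA, and 0.12 and -0.65 in untreated cells. In both genes each group spanned a range wider than the difference between the groups. The pooled ratio of Usp18 without the disturbed spots was -0.87 with endoglin siRNA and -0.77 in untreated cells. The dimmer Usp18 probe gave -0.05 and -0.16 with endoglin siRNA, and 0.08 and -0.08 in untreated cells.

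Ifit1, Ifit2 and Ifit3 encode proteins that bind viral RNA and block its translation. The probe of the curated Ifit1 transcript was too dim to be tested. The Ifit1 value comes from the brightest probe, which the array file names as a predicted Ifit1 transcript. It had log2 ratios of 0.37 and 0.13 with endoglin siRNA, and 0.20 and -0.43 in untreated cells. Its pooled endoglin siRNA value was -0.02 without the disturbed spots. A further probe of a predicted Ifit1 transcript gave 0.30 and -0.03 with endoglin siRNA, and 0.01 and -0.14 in untreated cells. Ifit2 lay below 0 on all 4 arrays, at -0.09 and -0.25 with endoglin siRNA and at -0.18 and -0.37 in untreated cells. Its dimmer probe gave -0.01 and -0.05 with endoglin siRNA, and -0.08 and -0.08 in untreated cells. Ifit3 had 0.04 and -0.11 with endoglin siRNA, and -0.11 and -0.11 in untreated cells. Its pooled ratio without those disturbed spots was -0.63 with endoglin siRNA and -0.25 in untreated cells.

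Mx1, Mx2 and Gbp2 are interferon-induced GTPases. Mx1, which blocks replication of RNA viruses, had intensities of 114 and 725 in endoglin siRNA cells, against 165 and 847 in control siRNA cells, and of 160 and 733 in untreated cells, against 163 and 872 in control siRNA cells. The log2 ratios were -0.53 (1 animal) and -0.22 (pool) with endoglin siRNA and -0.02 and -0.25 in untreated cells, all below 0 and overlapping between the groups. The mean with endoglin siRNA was -0.38 ± 0.09 (adjusted p = 0.0519). Without the disturbed spots it was -0.63, and then passed the test with an adjusted p of 0.00524. It was -0.10 with median centring (adjusted p = 0.832) and -0.22 without the 1-animal endoglin siRNA array (adjusted p = 0.381). Mx2 had -0.21 and -0.44 with endoglin siRNA, and 0.10 and -0.51 in untreated cells, and its mean with endoglin siRNA was -0.33 ± 0.14 (adjusted p = 0.202).

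Gbp2, which acts on vacuoles that hold pathogens, was among the bright probes, with intensities of 17400 and 14100 in endoglin siRNA cells, against 11500 and 13900 in control siRNA cells. In untreated cells it had 9130 and 10700, against 10100 and 15100 in control siRNA cells. The log2 ratios were 0.60 and 0.01 with endoglin siRNA, and -0.14 and -0.50 in untreated cells, so both endoglin siRNA arrays lay above both untreated arrays. The difference between endoglin siRNA and untreated cells was 0.62 ± 0.20 (adjusted p = 0.432). Its mean was 0.30 ± 0.14 with endoglin siRNA (adjusted p = 0.256) and -0.32 ± 0.14 in untreated cells (adjusted p = 0.383).

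The Oas enzymes make oligoadenylates that activate an RNA-cleaving enzyme, and Eif2ak2 (PKR) stops translation when it binds double-stranded RNA. Oas1a had log2 ratios of 0.38 and -0.25 with endoglin siRNA, and 0.12 and -0.63 in untreated cells, again lower on the pooled array of each group. Oas1b and Oasl lay between -0.07 and 0.13 on every array. Oas1b is a dim probe, above background only on the pooled arrays, and without the disturbed spots its pooled ratio was -0.15 with endoglin siRNA and -0.33 in untreated cells. Per the authors' scanner software, read as Cy5 over Cy3, its pooled ratio was -0.22 with endoglin siRNA and -0.99 in untreated cells. The untreated value had a p of 0.00042 in the error model of that software. Oas1a and Oas1b are close copies whose probes may share signal. Eif2ak2 lay above 0 on all 4 arrays, at 0.23 and 0.24 with endoglin siRNA and at 0.16 and 0.05 in untreated cells. Its mean with endoglin siRNA was 0.23 ± 0.06 (adjusted p = 0.0648). Its dimmer probe gave -0.03 and 0.06 with endoglin siRNA, and 0.03 and -0.07 in untreated cells.

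Among the enzymes that act on nucleotides and RNA, Isg20 differed most between the groups. Isg20, an exonuclease that degrades RNA, had intensities of 1230 and 2850 in endoglin siRNA cells, against 1110 and 2160 in control siRNA cells, and of 973 and 2000 in untreated cells, against 993 and 2430 in control siRNA cells. The log2 ratios were 0.15 and 0.40 with endoglin siRNA, and -0.03 and -0.28 in untreated cells, with no overlap. The difference between endoglin siRNA and untreated cells was 0.43 ± 0.13 (adjusted p = 0.374). Rsad2 (viperin), an antiviral enzyme, had 0.32 and -0.10 with endoglin siRNA, and 0.35 and -0.18 in untreated cells. Its neighbour Cmpk2, a mitochondrial nucleotide kinase, had 0.04 and -0.12 with endoglin siRNA, and -0.17 and -0.17 in untreated cells. Its pooled ratio was, without the disturbed spots, -0.64 with endoglin siRNA and -0.38 in untreated cells. The brighter probe of the helicase Mov10 lay between -0.11 and 0.08 on every array. The Mov10 value on the pooled endoglin siRNA array was -0.13 without the disturbed spots. Its dimmer probe gave -0.12 and -0.10 with endoglin siRNA, and -0.07 and -0.29 in untreated cells.

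Of the membrane proteins, Bst2 showed the widest gap from control siRNA cells. Bst2 (tetherin), which holds budding virus at the cell surface, had intensities of 5170 (1 animal) and 5320 (pool) in endoglin siRNA cells, against 5830 and 7030 in control siRNA cells. In untreated cells it had 4690 and 2940, against 7890 and 7100 in control siRNA cells. The log2 ratios were -0.17 and -0.40 with endoglin siRNA and -0.75 and -1.27 in untreated cells, all below 0, with no overlap between the groups. Bst2 was lower in untreated cells than in control siRNA cells by 2.02-fold (log2 ratio -1.01 ± 0.12, SE, n = 2 arrays, adjusted p = 0.0269). The other Bst2 probe gave -0.63 and -1.08 on the untreated arrays. Bst2 was the only 1 of the 29 genes called in this comparison, where 0.702% of all genes passed and 0.271% passed as lower. The call was lost without the pooled untreated array (-0.75, adjusted p = 0.154) and with the log ratios of the scanner software (-1.02, adjusted p = 0.348). With median centring the log2 ratio was -0.89 and with scaling between arrays -1.003, each with an adjusted p of 1.

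Ifi27, a small membrane protein, lay below 0 on all 4 arrays, at -0.10 and -0.54 with endoglin siRNA and at -0.23 and -0.63 in untreated cells. Its mean in untreated cells was -0.43 ± 0.12 (adjusted p = 0.19). Ifi35, a partner of Nmi, also lay below 0 on all 4 arrays, at -0.08 and -0.05 with endoglin siRNA and at -0.11 and -0.38 in untreated cells. Ifi44 had 0.05 and -0.09 with endoglin siRNA, and -0.03 and -0.50 in untreated cells. A second Ifi44 probe gave 0.14 and 0.00 with endoglin siRNA, and 0.08 and -0.40 in untreated cells. A further Ifi44 probe gave 0.20 and 0.15 with endoglin siRNA, and 0.04 and -0.22 in untreated cells.

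**Figure D2:**
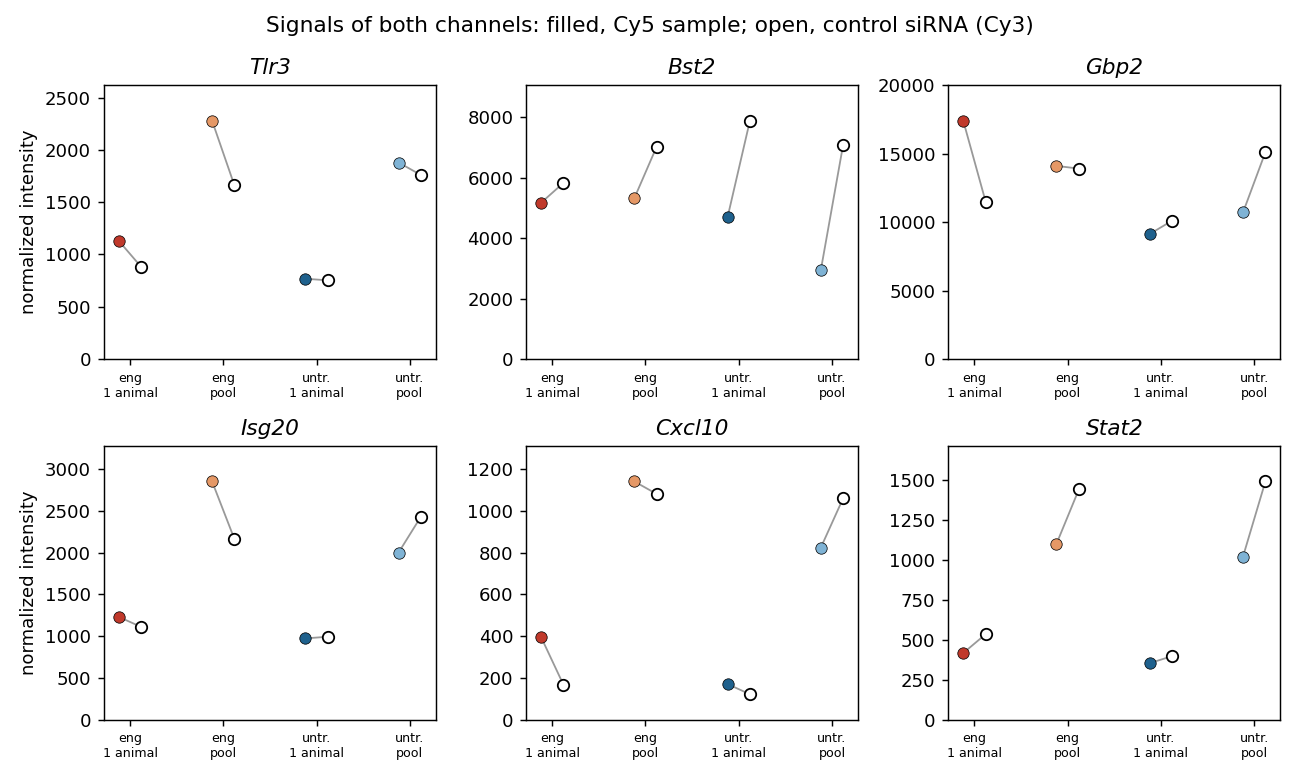
Normalised intensity (linear axis from 0) of 6 genes in the Cy5 sample (filled) and in the control siRNA cells of the same array (open), joined by a line, for the 4 arrays; each point is 1 channel of 1 array. Only the 2 ends of a line are on 1 scale, since the arrays differ in brightness. Bst2 lies below control siRNA on all 4 arrays, at 2940 against 7100 on the pooled untreated array, and Tlr3 lies above it on all 4 arrays, furthest on the endoglin siRNA arrays.

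Set against control siRNA cells, endoglin siRNA cells showed no common direction over the list with the background fit on all spots. Of the 29 genes, 10 were higher on both arrays (42.1% of all genes were), 8 were lower on both (27.4%) and 11 were split. Unadjusted p-values were under 0.05 for 10 of 29 genes, and for 23.1% of all genes. The median log2 ratio was 0.01 in the list and 0.02 over all genes, although the median absolute value was 0.17 in the list and 0.08 over all genes. The highest mean was that of Cxcl10 (0.66) and the lowest that of Mx1 (-0.38). The sign counts depend on the background fit. Without the disturbed spots 6 genes were higher on both arrays (40.3% of all genes) and 9 lower on both (31.1%). The Feature Extraction log ratios gave 5 higher (38.2%) and 11 lower (32.8%).

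Untreated cells tended to lie below control siRNA cells. Of the 29 genes, 14 were lower on both untreated arrays (31.9% of all genes were), 2 were higher on both (29.7%), namely Tlr3 and Eif2ak2, and 13 were split. Unadjusted p-values were under 0.05 for 7 of 29 genes, and for 13.6% of all genes. The median log2 ratio was -0.14 in the list and 0.00 over all genes, and it was -0.01 without the pooled untreated array. Beside Bst2, the lowest means were those of Ifi27 (-0.43), Stat2 (-0.35), Isg15 (-0.34), Gbp2 (-0.32) and Irf7 (-0.31), none of which passed the test.

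Endoglin siRNA and untreated cells were compared through their ratios to control siRNA cells. No gene of the list passed (0 of 29, with 0.0863% of all genes called by limma), while 4 of 29 had an unadjusted p under 0.05 (8.23% of all genes). The largest differences among genes whose sign agreed between 1 animal and pool were those of Bst2 (0.72 ± 0.17, adjusted p = 0.272), Gbp2 (0.62), Cxcl10 (0.60 ± 0.39, adjusted p = 0.797) and Isg20 (0.43). In 11 of 29 genes both endoglin siRNA arrays lay above both untreated arrays, against 24.4% of all genes. In 0 of 29 they lay below, against 11.6% of all genes. These counts depend on the background fit: without the disturbed spots only Bst2, Gbp2, Isg20 and Tlr3 lay above (4 of 29, 24% of all genes), and Mx1 and Irf9 lay below (2 of 29, 18.5%). Gbp2 and Isg20 alone had both endoglin siRNA arrays above 0 and both untreated arrays below 0 (2 of 29, 6.71% of all genes), with the pooled endoglin siRNA array of Gbp2 near 0. With 1 animal compared with 1 animal and pool with pool, 21 of 29 genes were higher with endoglin siRNA in both sources (37.3% of all genes) and 0 were lower in both (19.2%). The median difference was 0.12 in the list and 0.02 over all genes, and without 1 array in turn it lay between 0.020 (without the pooled untreated array) and 0.30 (without the 1-animal untreated array). The counts by source changed too. Without the disturbed spots, 16 genes were higher in both (34.3% of all genes) and 7 were lower in both (27.5%), among them Mx1 and Mx2. The Feature Extraction log ratios gave the same counts, 16 higher (36.4%) and 7 lower (26.6%).

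**Figure D3:**
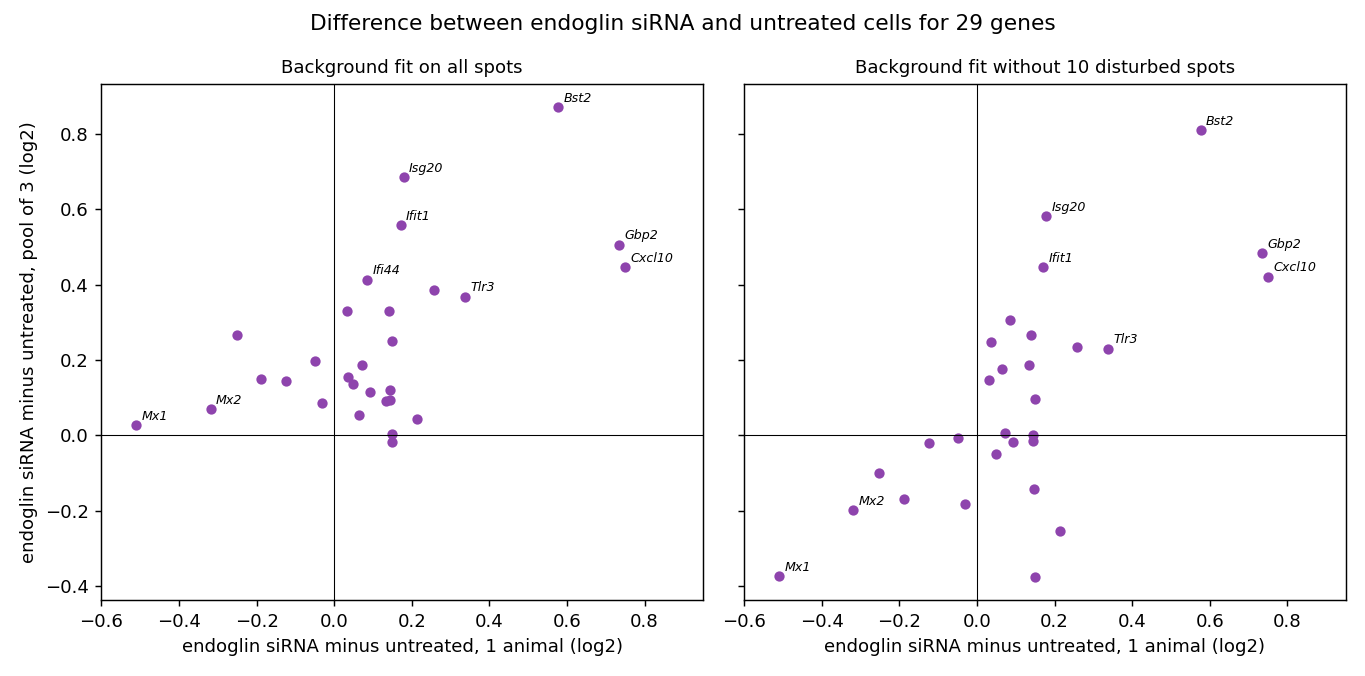
Difference in log2 ratio between endoglin siRNA and untreated cells for 29 genes, from the 1-animal arrays (x axis) and from the pooled arrays (y axis); each point is 1 gene, with no error bars. With the background fit on all spots (left) 21 genes lie upper right of both zero lines and 0 lower left; without the 10 disturbed spots (right) these counts are 16 and 7, and Bst2, Gbp2, Cxcl10, Isg20 and Tlr3 remain in the upper right.

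Most genes of the list had lower ratios on the pooled arrays than on the 1-animal arrays. In endoglin siRNA cells 22 of 29 genes had a lower ratio on the pooled array, with a median difference of -0.14 over the list, against 45.2% and 0.02 over all genes. In untreated cells 26 of 29 did, with a median difference of -0.25, against 62.8% and -0.04 over all genes. In both groups 20 of 29 were lower (31.8% of all genes) and 1, Tlr3, was higher in both. With median centring the list medians of the endoglin siRNA arrays did not have this order (0.72 for 1 animal and 0.80 for the pool). The pool minus 1-animal difference was -1.16 with endoglin siRNA and -0.85 in untreated cells for Cxcl10, and -0.63 and -0.76 for Oas1a. It was -0.54 with endoglin siRNA and -0.73 in untreated cells for Isg15, -0.56 and -0.54 for Irf7, and -0.42 and -0.53 for Rsad2. Per the authors' scanner software, read as Cy5 over Cy3, 7 of 29 genes passed its p under 0.01 on the pooled endoglin siRNA array. All 7 were lower, and 8.99% of all genes passed in either direction. On the pooled untreated array 10 of 29 passed, all 10 lower (5.05% of all genes passed in either direction). The deposited value table has the opposite sign on both untreated arrays. Per the same software of the authors, 5 of 29 passed on the 1-animal endoglin siRNA array, of which 4 were higher (8.4% of all genes passed in either direction). On the 1-animal untreated array 3 of 29 passed (2.86%). Each source is 1 array per group, and both pooled ratios may rest on the same control RNA, so the source, the array and the control RNA cannot be told apart.

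The genes were also set out by promoter letters. The 13 tested genes with an ISRE core had a median log2 ratio of 0.15 (1 animal) and -0.09 (pool) with endoglin siRNA, and -0.03 and -0.37 in untreated cells. The 9 tested genes with a window but no core had 0.04 and -0.01 with endoglin siRNA, and -0.01 and -0.11 in untreated cells. Genes with a core thus had the lower median on both pooled arrays, as a description of these arrays with no test. Single genes with a core went both ways there. They ranged from -0.54 (Ifi27) to 0.40 (Isg20) with endoglin siRNA, and from -1.27 (Bst2) to 0.05 (Eif2ak2) in untreated cells. Without the disturbed spots, the pooled medians were -0.16 with a core and -0.13 without a core for endoglin siRNA, and -0.47 and -0.08 for untreated cells.

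Other genes of the interferon pathway were taken from a separate list of 95, of which 80 were tested. With endoglin siRNA 6 of 80 rose and 2 fell against control siRNA cells, with a median of 0.02, a share of calls near the 8.11% of all genes. Fewer passed without the 1-animal endoglin siRNA array or without either untreated array, among the 80 and over all genes alike. Nfkb1, a transcription factor of inflammation, rose by 0.42 ± 0.07 (adjusted p = 0.0152), and Tlr4, the receptor for bacterial lipopolysaccharide, rose by 0.42 ± 0.09 (adjusted p = 0.0323). Ifitm1, a membrane protein that blocks viral entry, rose by 0.36 ± 0.07 (adjusted p = 0.0253), and Nmi, which binds STAT proteins, by 0.34 ± 0.07 (adjusted p = 0.03). The STAT inhibitor Pias1 rose by 0.31 ± 0.06 (adjusted p = 0.0252). Trafd1, a negative regulator of innate signalling, fell, with a log2 ratio of -0.45 ± 0.09 (adjusted p = 0.0247).

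In untreated cells 2 of the 80 passed against control siRNA cells, both higher, with a median over the 80 of -0.03, where 0.702% of all genes passed. Fewer passed without either untreated array and more without either endoglin siRNA array, among the 80 and over all genes alike. Ptpn6, a phosphatase of blood cells that dampens cytokine signalling, was higher by 0.97 ± 0.09 (adjusted p = 0.0152). Tlr2, a receptor for bacterial lipoproteins, was higher by 0.44 ± 0.07 (adjusted p = 0.0402). Between endoglin siRNA and untreated cells 0 of the 80 passed in limma, and 12 had an unadjusted p under 0.05, where 0.0863% and 8.23% of all genes did.

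Markers of Kupffer cells and macrophages, liver cells that can also express interferon response genes, differed in their ratios between the arrays. All 16 markers were tested. Their median log2 ratio to control siRNA cells was 0.28 (1 animal) and -0.01 (pool) with endoglin siRNA, and 0.97 and 0.42 in untreated cells. Against control siRNA cells 1 of 16 was higher in endoglin siRNA cells and 6 of 16 in untreated cells, where 5.25% of all genes were called higher with endoglin siRNA and 0.702% were called in either direction in untreated cells. Between the groups 1 of 16 was lower in endoglin siRNA cells than in untreated cells, where 0.0863% of all genes were called. Their summed signals also hold the raised level of dim probes on the pooled arrays. The log2 ratio of these sums was 0.12 and 0.18 with endoglin siRNA, and 0.94 and 1.16 in untreated cells. On the untreated arrays the macrophage markers thus lay above control siRNA cells while most interferon response genes on the pooled array lay below. The part of macrophage RNA in the values of the interferon response genes was not tested.

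**Figure D4:**
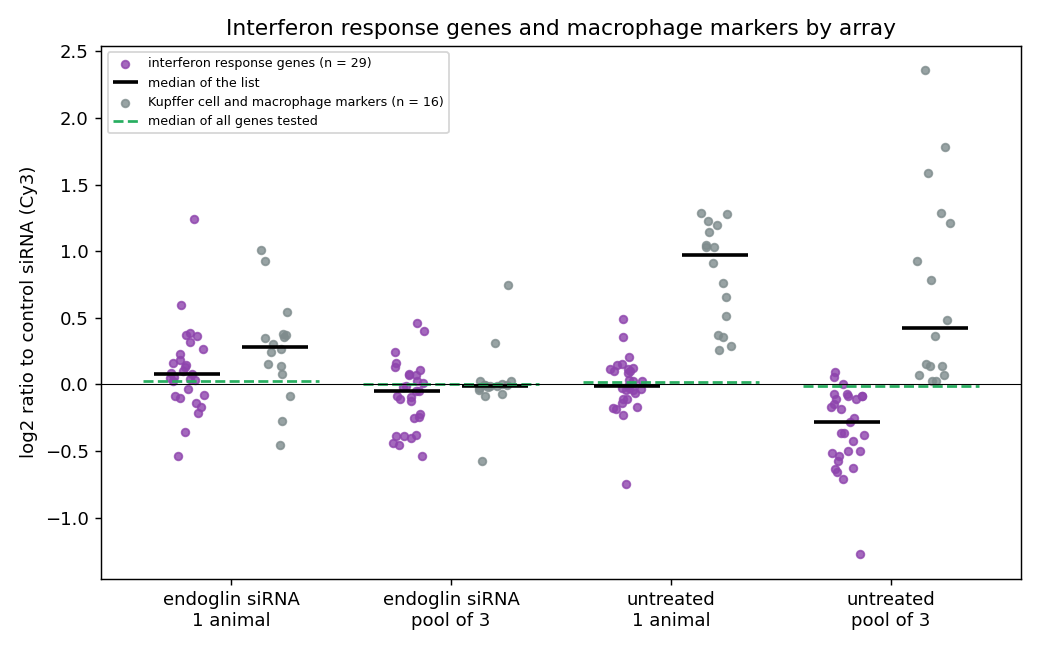
Log2 ratio to control siRNA cells (y axis) on each of the 4 arrays for 29 interferon response genes (purple) and 16 Kupffer cell and macrophage markers (grey); each point is 1 gene, black bars are list medians and dashed green lines the median of all 25500 genes. On the pooled untreated array the interferon response genes have a median of -0.28 and the macrophage markers 0.42. Ratios of dim probes on the pooled arrays are pulled towards 0.

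The ratios of the genes were correlated between arrays of a group. Over the 29 genes, Pearson's r between the 2 endoglin siRNA arrays was 0.47, and over all genes 0.63; between the 2 untreated arrays it was 0.50, and over all genes 0.53. Spearman's rho over the 29 genes was 0.60 for the endoglin siRNA arrays and 0.25 for the untreated arrays. These are correlations across genes of arrays that share a slide, and genes are not independent replicates.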

How the data were processed

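Two-colour Agilent 4x44K rat arrays were read by the authors in version 9.5.1.1 of Agilent Feature Extraction; mean and background signals are linear intensity values, and the deposited ratios are log10 of Cy5 over Cy3 with p-values, per the file headers. The error of each deposited ratio is a score from the error model of that software, per the file headers. The deposited value table holds log10 ratios that matched those ratios within 0.0048, after its untreated columns were turned. All 4 arrays lay on 1 slide and in 1 scan.

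From the deposited intensities, log2 ratios were computed with limma 3.58.1 in R 4.3.3: normexp background correction (offset 50), loess within arrays, flagged spots left out (189 to 289 per array), and 0 saturated gene spots. Of 41012 gene probes, 30050 were kept, being above background in Cy5 or Cy3 on 2 or more arrays. The brightest probe stood for a gene, named through RefSeq (GRCr8) by accession, symbol, synonym or gene ID. All 25500 genes were fitted together (lmFit, eBayes), with Benjamini-Hochberg adjustment at 0.05; control siRNA RNA was only the other dye, and where arrays shared one control RNA, the spread between control samples is not in the p-values. Nothing says that arrays of a group are separate cultures beyond 1 animal and a pool of 3, so p-values cover only the spread between these arrays, and 2 arrays per group limit the precision. Disturbed spots were those whose background exceeded their signal by more than 50, a limit set after seeing the data. The fit was also run on simulated data with independent errors, which does not cover the correlated deviations of same-source arrays given below.

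The genes and lists were chosen with earlier results of these data known. Values with a test were given for genes that passed and, where under 4 passed, for the largest means of 1 sign on both arrays, up to 4 per comparison; of other pathway genes, for those that passed, at most 6. One further result is not reported here. Values of genes that are set out beyond this rule (Eif2ak2, means in the other comparison) were chosen after they were seen. Alternatives were other background corrections, Feature Extraction ratios, median centring, scaling between arrays, the deposited table, dim-probe filters, probe means, leaving out each array, and RNA source as a block.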

Additional observations from a re-analysis of the deposited data

Results flagged for a closer look

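For 2 genes, both endoglin siRNA arrays lay above control siRNA cells and both untreated arrays below, as for 6.71% of all genes. Gbp2 lay above control siRNA cells on both endoglin siRNA arrays (0.60 and 0.01) and below on both untreated arrays (-0.14 and -0.50). Its pooled endoglin siRNA value is near 0, and was -0.0084 in the Feature Extraction ratios. Its difference in log2 ratio was 0.62, with a limma adjusted p of 0.432. Isg20 lay above on both endoglin siRNA arrays (0.15 and 0.40) and below on both untreated arrays (-0.03 and -0.28). Its difference was 0.43, with a limma adjusted p of 0.374. Neither difference passed the test. Without the disturbed spots the differences were 0.61 for Gbp2 and 0.38 for Isg20, with adjusted p-values of 0.261 and 0.257.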

How the results depend on the processing

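Each result was recomputed under other settings; where an array was left out, the lone array of its group is assumed to vary like the others. The genes of the list called with endoglin siRNA against control siRNA (1 in the report) numbered 3 with no background correction, without the disturbed spots, with no filter on dim probes and with the stricter filter, with Tlr3 higher and Mx1 and Stat2 lower, and 0 with Feature Extraction ratios, median centring, scaling between arrays and the deposited table. They ranged from 1 to 4 when an array was left out (4 without the pooled endoglin siRNA array, 2 without either untreated array). Against control siRNA, untreated cells had 1 call under those first settings, 0 with Feature Extraction ratios, median centring, scaling between arrays and the deposited table, and 0 to 1 when an array was left out (0 without the pooled untreated array). Between endoglin siRNA and untreated cells the calls were 0 to 1 when an array was left out (1 without the pooled endoglin siRNA array). Pathway genes called with endoglin siRNA (8) numbered 13 with no background correction and without the disturbed spots, 0 with Feature Extraction ratios, median centring, scaling and the deposited table, and 1 to 11 when an array was left out. In untreated cells (2) they numbered 4, 4 and, with no filter, 5, 0 with those same 4 settings, and 0 to 7 when an array was left out; between the groups they numbered 1 without the disturbed spots. The list's median with endoglin siRNA (0.01) was 0.79 with median centring, which moved the median of all genes to 0.32, and -0.09 with scaling; Stat2 turned to 0.32 with median centring (adjusted p = 0.596), the level of all genes. The median difference from untreated cells (0.12) was 0.081 with no background correction, 0.073 without the disturbed spots, 0.90 with median centring (all genes 0.26), 0.042 with scaling, 0.096 with the mean of all probes, 0.020 to 0.30 when an array was left out, and -0.24 with the deposited table's own signs. The cause of these moves was not tested. With RNA source as a replicate block, the list had 9 calls with endoglin siRNA, 6 in untreated cells and 3 between the groups. The pathway genes then had 20, 8 and 1. Nothing in the labels pairs the arrays, and the deviations of same-source arrays correlated at 0.29 over all genes and at 0.68 over the 29 genes. Calls over all genes (2069 of 25500 with endoglin siRNA) moved as well. They numbered 4501 with no background correction, 4152 without the disturbed spots and 3910 with the block. In untreated cells (179) they numbered 514, 471 and 1001 in the same order. With Feature Extraction ratios, median centring, scaling between arrays and the deposited table, 0 of all genes were called against control siRNA in either group. Low signal limits the values of dim probes on the pooled arrays.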
